A study of Saccharomyces cerevisiae with 12 samples.

Results

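The respiratory chain and the ATP synthase of budding yeast (Saccharomyces cerevisiae) were followed through the mRNA of 32 nuclear genes, 32 of the 6571 genes for which values were deposited. The genes were picked by name, by a rule that did not use their values, though earlier results of these data were known. They encode 11 subunits of the ATP synthase, 7 of cytochrome c oxidase, 9 of the cytochrome bc1 complex and 4 of succinate dehydrogenase, together with the internal NADH dehydrogenase Ndi1. Each of the 32 was found once in the table. The first group, called tSH2Δ, carried an spt6 allele that lacks the tandem SH2 (tSH2) domain, by which Spt6, a histone chaperone, binds RNA polymerase II. The second group carried wild-type SPT6 (WT). RNA came from 3 cultures or preparations of each, grown without treatment in YPD, a rich medium with glucose, and harvested 4 h after dilution of a saturated culture to an OD of 0.2. One protocol in the labels gives 4 h and another gives a density at harvest, so it is not shown that both strains were at the same density. The strain field names S288C, a common laboratory strain, for both genotypes, while the column headers name it for WT alone, so the labels leave unsaid whether other loci differ too. The study asked what part Spt6 plays in mRNA turnover. An mRNA level is the balance of synthesis and decay, which these libraries do not tell apart, and in a culture fewer transcripts per cell and fewer cells that make them cannot be told apart.

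The respiratory chain sits in the inner membrane of mitochondria and passes electrons from NADH and succinate to oxygen. Ndi1 and succinate dehydrogenase feed electrons into ubiquinone, the bc1 complex passes them to cytochrome c, and cytochrome c oxidase passes them to oxygen. The bc1 complex and the oxidase pump protons, and the ATP synthase uses the proton gradient to make ATP. Baker's yeast has no proton-pumping complex I, and Ndi1 takes its place on the inner face. On glucose yeast ferments, and many genes of respiration are kept low until glucose runs out, when the Hap2/3/4/5 activator and other regulators raise them. The central subunits of cytochrome c oxidase, of the bc1 complex and of the membrane rotor of the ATP synthase are encoded in mitochondrial DNA, and they were not analysed here.

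Levels are given as rescaled RPKM, that is the deposited reads per kilobase, scaled to library depth, divided by a factor that sets the typical gene level with its mean over libraries. Values of single libraries are given in the order of replicates 1, 2 and 3. A fold change is tSH2Δ minus WT on the log2(rescaled RPKM + 1) scale, and a gene was called at a limma adjusted p under 0.05, adjusted over the 6306 genes tested. The scaling bears on the directions below. In the RPKM as deposited the median gene stood 0.57 higher in tSH2Δ on the log2 scale. The libraries held 20483931 to 27069700 reads, and the 32 genes held 255 to 16353 reads each per library. The SPT6 mRNA itself had 85.4, 83.8 and 84.3 rescaled RPKM in tSH2Δ, against 173.7, 181.6 and 184.9 in WT, a log2 fold change of -1.08 (limma adjusted p = 3.5e-08, SE 0.0354), and -0.50 in RPKM as deposited. Its RPKM is a mean over the annotated gene, the part absent from the allele included. In both strains replicate 3 stood apart from the other two. Chi-square per gene was 12.2 to 18.3 for tSH2Δ pairs with replicate 3 and 3.11 for the remaining pair, and 8.93 to 14.5 and 3.19 for WT. Whether replicates are separate cultures is not in the labels, and p-values then measure only how far these libraries spread, which may be technical. Genes on chromosome XI were lower in tSH2Δ as a body (median log2 fold change -0.86) over 314 genes matched to RefSeq and tested, 278 of them called lower (88.5%). Of the 32 genes ATP7, SDH1 and SDH3 lie there.

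All 32 genes passed the filter on low values, and 26 were called. Of these, 15 were higher in tSH2Δ, against a background of 41.6% of all genes called higher, and 11 were lower, against 41.9%. On this scale the 32 genes passed the test about as often as other genes, with 83.5% of all genes called in one direction or the other. Their median log2 fold change was 0.14, against 0.01 for all genes tested. The division lay between complexes. The bc1 complex and cytochrome c oxidase held 12 of the 15 higher genes and 0 of the 11 lower genes, while the ATP synthase held 9 of the lower and 0 of the higher. A log2 fold change of at least 1 was reached by CYT1, RIP1 and QCR9, all of the bc1 complex (7.9% of all genes), and one of -1 or less by SDH3 (9.5% of all genes). The 3 tSH2Δ and 3 WT values did not overlap for 24 of the 32 genes, 14 higher and 10 lower, where 84.7% of all genes did not overlap.

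**Figure D1:**
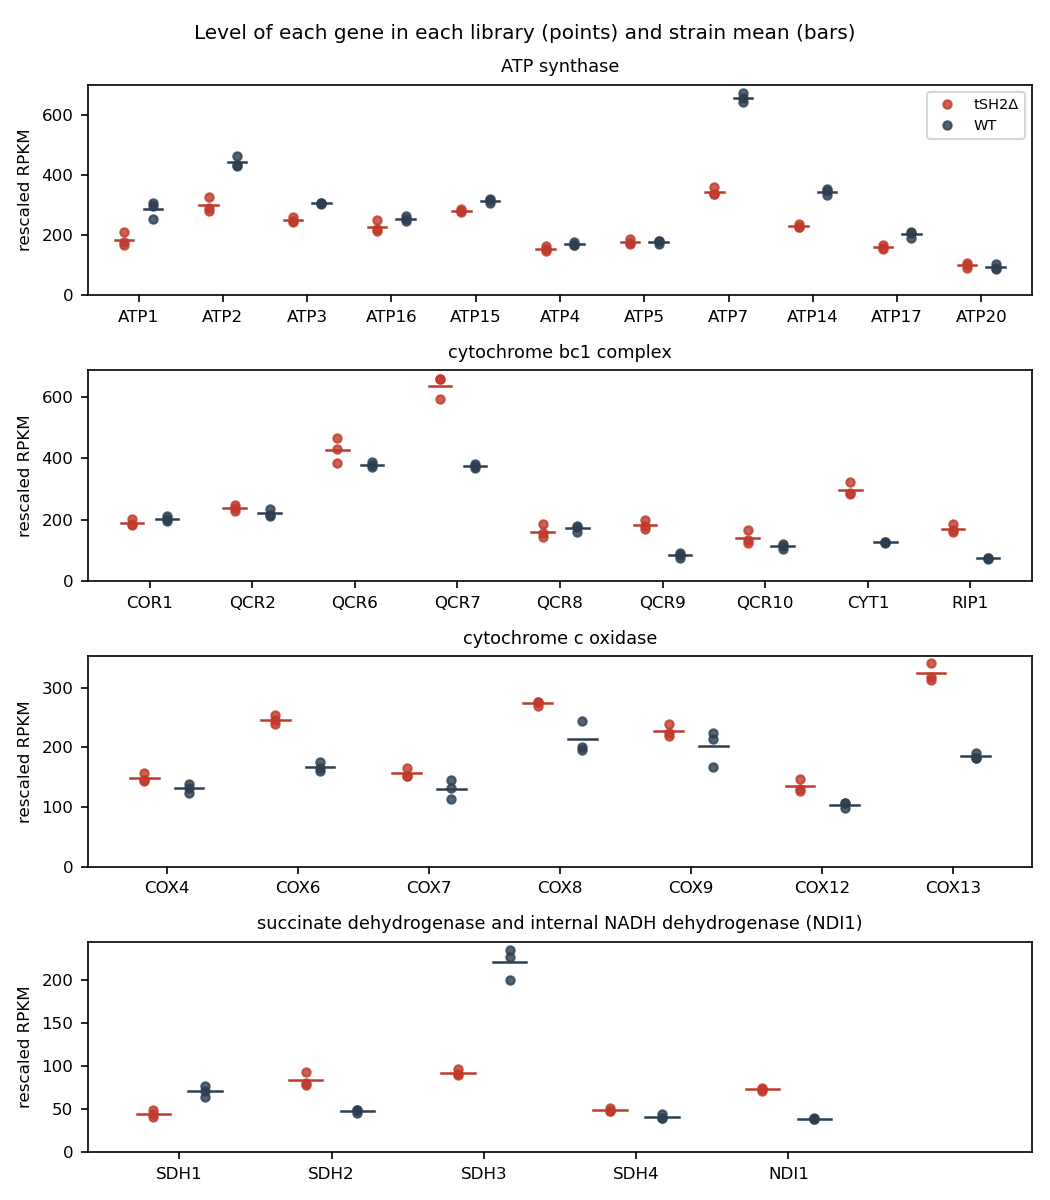
Rescaled RPKM (linear axis) of each of the 32 genes in each library, tSH2Δ left of WT, with bars at the strain means of 3 libraries. QCR7, CYT1, RIP1, QCR9 and COX13 have all tSH2Δ points above WT, and ATP7, ATP2 and SDH3 all tSH2Δ points below WT.

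The bc1 complex carries the genes that rose furthest. It holds 2 large core proteins, the catalytic subunits cytochrome c1 and the Rieske iron-sulfur protein, and several small subunits around them. Of its 9 nuclear genes 6 were called higher (41.6% of all genes), 0 lower (41.9%) and 3 not called (median log2 fold change 0.31). CYT1 (YOR065W, chromosome XV, 447439 to 448368, assembly R64), which encodes cytochrome c1, the subunit that hands electrons to cytochrome c, had 283.3, 286.6 and 321.2 rescaled RPKM in tSH2Δ, against 127.9, 126.8 and 125.0 in WT. The lowest tSH2Δ library lay far above the highest WT library, and the log2 fold change was 1.22 (limma adjusted p = 1.13e-07, SE 0.0512). RIP1 (YEL024W, chromosome V, 107260 to 107907), the Rieske iron-sulfur protein, which takes electrons from ubiquinol, had 160.3, 165.3 and 186.9 rescaled RPKM in tSH2Δ, against 76.2, 73.2 and 70.6 in WT. Its log2 fold change was 1.21 (limma adjusted p = 2.87e-07, SE 0.0603), close to that of CYT1, and the WT libraries kept within a narrow range. QCR9 (YGR183C, chromosome VII, 859063 to 859476), a small subunit bound near the catalytic ones, had 170.7, 178.1 and 199.3 rescaled RPKM in tSH2Δ, against 91.3, 83.6 and 74.4 in WT. The log2 fold change was 1.13 (limma adjusted p = 2.52e-06, SE 0.0816). QCR9 has an intron, and its length in the files is 199 bases of a span of 414, so the RPKM refers to the shorter length. The same holds for QCR10, with 232 bases of 297.

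QCR7 was the most abundant of the 32 mRNAs in tSH2Δ. This subunit faces the matrix and is needed for assembly of the complex, and its mRNA had 657.3, 657.7 and 594.1 rescaled RPKM in tSH2Δ, against 380.5, 368.5 and 375.7 in WT. The groups stood far apart, with a log2 fold change of 0.76 (limma adjusted p = 1.51e-06, SE 0.0505). QCR10, a subunit that the complex can do without, had 124.5, 132.6 and 166.5 rescaled RPKM in tSH2Δ, against 115.5, 103.1 and 121.8 in WT, with values that did not overlap but lay close, and a log2 fold change of 0.31 (limma adjusted p = 0.0263, SE 0.107). Without WT replicate 2 it was 0.24 and not called (adjusted p = 0.0961), and without tSH2Δ replicate 3 it was 0.18 and called. QCR6, the acidic hinge subunit next to cytochrome c1, had 466.6, 431.6 and 384.4 rescaled RPKM in tSH2Δ, against 370.9, 377.4 and 386.5 in WT. One tSH2Δ library lay inside the WT range, and the call at 0.17 (limma adjusted p = 0.0424, SE 0.0678) was lost when any library other than tSH2Δ replicate 3 was left out. The core protein genes and QCR8 did not pass the test. COR1 had 185.3, 183.7 and 201.7 rescaled RPKM in tSH2Δ, against 201.5, 196.5 and 210.1 in WT, and a log2 fold change of -0.092 (limma adjusted p = 0.101, SE 0.0472). QCR2 had 228.7, 236.3 and 248.8 rescaled RPKM in tSH2Δ, against 234.8, 211.9 and 216.3 in WT, with the lowest tSH2Δ library inside the WT range, and 0.11 (limma adjusted p = 0.0806, SE 0.0508), called without WT replicate 1 (0.15). QCR8, the subunit next to the ubiquinone site, spread widely in tSH2Δ with 142.4, 154.9 and 185.0 rescaled RPKM in tSH2Δ, against 175.3, 179.6 and 160.0 in WT, and its log2 fold change was -0.10 (limma adjusted p = 0.326, SE 0.0909). Without tSH2Δ replicate 3, COR1 at -0.14 and QCR8 at -0.21 were called lower.

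Within the bc1 complex the shift was uneven. Relative to the median of the complex in the same library, in RPKM as deposited, CYT1 stood 1.08 higher in tSH2Δ than in WT on the log2 scale, RIP1 1.07, QCR9 0.99 and QCR7 0.61. The difference between the catalytic subunit genes CYT1 and RIP1 and the core protein genes COR1 and QCR2 was not tested.

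Cytochrome c oxidase was represented by 7 of its small nuclear-encoded subunits, which surround the catalytic core made in mitochondria. Of these, 6 were called higher (41.6% of all genes), 0 lower (41.9%) and 1 not called (median log2 fold change 0.36). COX13 (YGL191W, chromosome VII, 144808 to 145197), a peripheral subunit that the enzyme can assemble without, rose furthest and had 317.5, 313.6 and 341.3 rescaled RPKM in tSH2Δ, against 189.9, 183.0 and 182.6 in WT. Its log2 fold change was 0.80 (limma adjusted p = 4.16e-07, SE 0.0430), and no tSH2Δ value came near the WT range. COX6 (YHR051W, chromosome VIII, 209705 to 210151), a subunit needed for a working enzyme, had 239.1, 254.2 and 245.5 rescaled RPKM in tSH2Δ, against 160.9, 165.4 and 175.2 in WT, a log2 fold change of 0.56 (limma adjusted p = 4.1e-06, SE 0.0435). COX12, which sits on the intermembrane side, had 126.9, 130.6 and 146.8 rescaled RPKM in tSH2Δ, against 106.5, 106.0 and 98.7 in WT, and a log2 fold change of 0.37 (limma adjusted p = 0.000403, SE 0.0595). The rises were smaller in the remaining members. COX8 had 269.9, 275.4 and 276.6 rescaled RPKM in tSH2Δ, against 196.2, 201.4 and 244.0 in WT, where WT replicate 3 stood above the other WT libraries, and a log2 fold change of 0.36 (limma adjusted p = 0.00216, SE 0.0768). For COX7, with 151.8, 151.7 and 165.6 rescaled RPKM in tSH2Δ, against 132.4, 144.9 and 112.9 in WT, the log2 fold change was 0.27 (limma adjusted p = 0.0167, SE 0.0849). This call was lost without tSH2Δ replicate 3 (adjusted p = 0.0593), and without WT replicate 3 the value was 0.17 and called. COX4, needed for assembly of the enzyme, had the smallest called rise with 143.6, 145.9 and 157.5 rescaled RPKM in tSH2Δ, against 138.3, 131.2 and 124.4 in WT, at 0.18 (limma adjusted p = 0.0103, SE 0.0516). COX9, also needed for assembly, had 219.8, 224.9 and 240.1 rescaled RPKM in tSH2Δ, against 214.2, 167.5 and 224.1 in WT. The WT libraries of COX9 spread more than those of any other oxidase gene here, the groups overlapped, and the log2 fold change of 0.19 (limma adjusted p = 0.116, SE 0.1005) did not pass. Without WT replicate 2 it was 0.06, and without WT replicate 3 it was 0.27 and called.

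**Figure D2:**
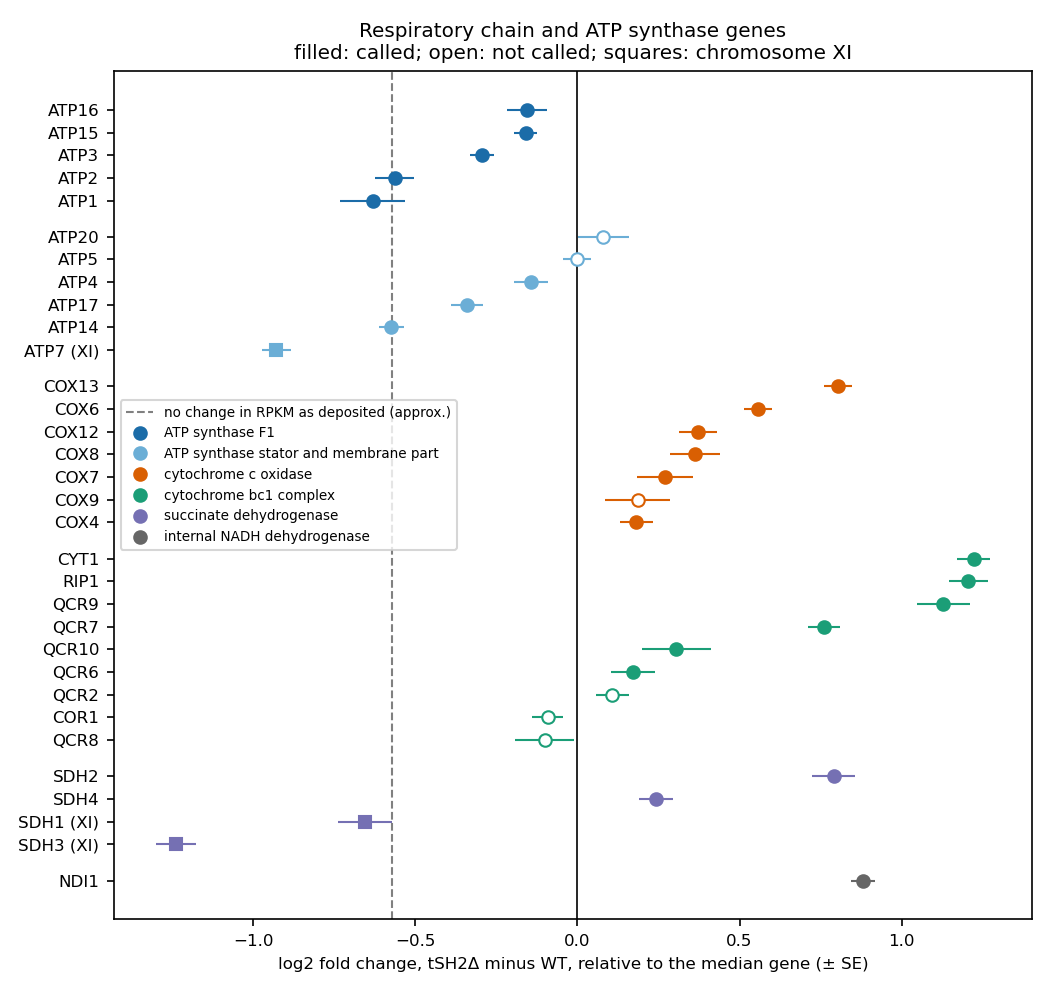
Log2 fold change of each gene, tSH2Δ minus WT, relative to the median gene, with bars of 1 SE; filled symbols were called, open symbols were not, and squares mark genes on chromosome XI. Cytochrome c oxidase and most bc1 genes lie right of 0 and ATP synthase genes left of it or near it. The dashed line marks about where a gene would lie with no difference in RPKM as deposited, and most ATP synthase genes lie right of that line.

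The ATP synthase is a rotary enzyme, in which the catalytic F1 head is held by a stator stalk and turned by a rotor in the membrane. Of its 5 F1 genes all were called lower (median log2 fold change -0.29). Of the 6 stator and membrane genes 4 were lower and 2 not called (median -0.24). Among all genes tested 41.9% were called lower on this scale. The counts depend on the scaling. In RPKM as deposited 7 of the 11 genes were called higher (72.4% of all genes), 1 lower (17.3%) and 3 not called. After quantile normalization, which moves genes by their level, 8 were higher (40% of all genes, not matched for level) and 1 lower (41.1%). When libraries were set to equal sums with ribosomal protein genes left out, 7 were higher (67.5%) and 2 lower (20.8%). ATP7 was lower under each of these scalings.

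Among the F1 genes the largest difference was in ATP1 (YBL099W, chromosome II, 37053 to 38690), which encodes the alpha subunit of the catalytic ring. ATP1 had 165.5, 176.3 and 211.9 rescaled RPKM in tSH2Δ, against 306.5, 296.1 and 254.7 in WT, with tSH2Δ replicate 3 nearest to WT and WT replicate 3 nearest to tSH2Δ. Its log2 fold change was -0.63 (limma adjusted p = 0.000377, SE 0.0999), and -0.051 and not called in RPKM as deposited. ATP2 (YJR121W, chromosome X, 647607 to 649142), the beta subunit that holds the catalytic sites, had 281.8, 291.4 and 326.3 rescaled RPKM in tSH2Δ, against 463.9, 431.7 and 433.9 in WT. The groups were well apart, at -0.56 (limma adjusted p = 3.23e-05, SE 0.0609) after scaling and 0.017 as deposited. The central stalk genes differed less. ATP3, the gamma subunit, had 246.2, 243.0 and 258.8 rescaled RPKM in tSH2Δ, against 303.3, 307.0 and 307.2 in WT, and its log2 fold change was -0.29 (limma adjusted p = 9.25e-05, SE 0.0374). ATP15, the epsilon subunit, had 277.5, 287.2 and 279.3 rescaled RPKM in tSH2Δ, against 318.8, 316.7 and 307.5 in WT, at -0.16 (limma adjusted p = 0.00292, SE 0.0356). ATP16, the delta subunit, had 213.8, 220.4 and 251.0 rescaled RPKM in tSH2Δ, against 262.9, 247.3 and 252.4 in WT, with 1 tSH2Δ library inside the WT range, at -0.16 (limma adjusted p = 0.0415, SE 0.0616). This call was lost when any library other than tSH2Δ replicate 3 was left out. As deposited these central stalk genes were higher in tSH2Δ, by 0.29 for ATP3, 0.42 for ATP15 and 0.42 for ATP16.

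In the stator and membrane part ATP7 (YKL016C, chromosome XI, 407465 to 407989), subunit d of the stalk, was the most abundant of the 32 mRNAs in WT and had 336.0, 337.4 and 360.1 rescaled RPKM in tSH2Δ, against 642.1, 656.2 and 672.1 in WT. Every tSH2Δ library lay far below every WT library, at a log2 fold change of -0.93 (limma adjusted p = 2.21e-07, SE 0.0442), and ATP7 was lower in RPKM as deposited too (-0.35). ATP7 lies on chromosome XI, and when each gene was set against the median of its own chromosome, its log2 fold change was -0.07 and not called. ATP14 (YLR295C, chromosome XII, 721999 to 722373), subunit h of the stalk, had 228.1, 227.2 and 238.2 rescaled RPKM in tSH2Δ, against 352.9, 334.3 and 346.9 in WT, and is not on that chromosome. The log2 fold change was -0.57 (limma adjusted p = 1.69e-06, SE 0.0389), and 0.007 as deposited. ATP17, subunit f of the membrane part, had 155.1, 156.0 and 166.7 rescaled RPKM in tSH2Δ, against 207.4, 209.0 and 189.9 in WT, at -0.34 (limma adjusted p = 0.000211, SE 0.0492). Smaller values came from the stalk subunits b and OSCP and from subunit g. ATP4, subunit b, had 152.4, 145.8 and 164.9 rescaled RPKM in tSH2Δ, against 167.5, 165.4 and 178.4 in WT, groups that lay next to each other, and -0.14 (limma adjusted p = 0.0328, SE 0.0527), not called without tSH2Δ replicate 1, tSH2Δ replicate 2 or WT replicate 3. ATP5, the OSCP subunit that joins stalk and head, had 170.0, 174.7 and 185.6 rescaled RPKM in tSH2Δ, against 180.7, 179.6 and 170.3 in WT. Its groups overlapped, the log2 fold change was -0.0013 (limma adjusted p = 0.979, SE 0.0443), and its sign changed when single libraries were left out. ATP20, subunit g, which takes part in pairing of the enzyme, had 90.2, 98.9 and 108.8 rescaled RPKM in tSH2Δ, against 91.6, 87.4 and 102.5 in WT, at 0.079 (limma adjusted p = 0.367, SE 0.0784).

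Succinate dehydrogenase links the citric acid cycle to the chain, and its 4 genes split into a pair that was higher and a pair that was lower. SDH2 (YLL041C, chromosome XII, 53131 to 53931), the iron-sulfur subunit, had 78.8, 81.2 and 94.0 rescaled RPKM in tSH2Δ, against 49.2, 49.6 and 46.4 in WT, with a log2 fold change of 0.79 (limma adjusted p = 6.63e-06, SE 0.0666). SDH4 (YDR178W, chromosome IV, 817950 to 818495), a membrane anchor subunit, had 51.5, 47.9 and 48.1 rescaled RPKM in tSH2Δ, against 40.3, 39.8 and 44.2 in WT, close groups that did not overlap, and 0.24 (limma adjusted p = 0.00235, SE 0.0521). The genes of the other catalytic subunit and the other anchor went the opposite way. SDH3 (YKL141W, chromosome XI, 179667 to 180263), the second membrane anchor subunit, had 89.7, 91.7 and 96.9 rescaled RPKM in tSH2Δ, against 234.9, 227.0 and 200.5 in WT, a log2 fold change of -1.24 (limma adjusted p = 2.82e-07, SE 0.0617), the furthest fall among the 32 genes. SDH1 (YKL148C, chromosome XI, 169207 to 171129), the flavoprotein that oxidises succinate, had 40.7, 44.4 and 49.2 rescaled RPKM in tSH2Δ, against 77.3, 71.4 and 64.4 in WT, at -0.65 (limma adjusted p = 9.23e-05, SE 0.0831). Both lower genes lie on chromosome XI, and neither higher gene does. Against the median of chromosome XI, SDH3 was still called lower at -0.38, while SDH1 was at 0.20 and not called (limma adjusted p = 0.056). After quantile normalization SDH4 was not called higher. NDI1 (YML120C, chromosome XIII, 28266 to 29807), the internal NADH dehydrogenase, had 71.5, 73.8 and 75.1 rescaled RPKM in tSH2Δ, against 40.3, 39.2 and 38.7 in WT. Its groups were tight and far apart, with a log2 fold change of 0.88 (limma adjusted p = 1.1e-07, SE 0.0368).

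Under the 4 scalings (to the median gene, RPKM as deposited, quantile normalization, and equal sums without ribosomal protein genes), 14 of the 32 genes were called higher every time and 2 lower every time. Over all genes tested under each of them, 33.4% were called higher every time and 16.1% lower. The 14 were COX4, COX6, COX7, COX8, COX12, COX13, QCR6, QCR7, QCR9, QCR10, CYT1, RIP1, SDH2 and NDI1, and the 2 were ATP7 and SDH3. The remaining 16, among them each ATP synthase gene other than ATP7, changed call or direction with the scaling. Over all 32 genes, 26 were higher and 2 lower in RPKM as deposited, where 72.4% and 17.3% of all genes were. After quantile normalization 26 of the 32 were higher and 3 lower, where 40% and 41.1% of all genes were. Quantile normalization moves genes by their level. The 32 genes had strain means of 39.4 rescaled RPKM or more, and the shares over all genes were not matched for level.

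The balance between complexes was also read inside each library. Such a ratio is not moved by a factor that multiplies a whole library, though quantile normalization, which is no such factor, does move it. The median cytochrome c oxidase gene stood at 0.04, 0.03 and 0.01 relative to the median ATP synthase gene in tSH2Δ, against -0.91, -0.84 and -0.54 in WT, on the log2 RPKM scale. In tSH2Δ the oxidase genes were thus at the level of the ATP synthase genes, and in WT below it. For the bc1 complex the same measure was -0.21, -0.26 and -0.24 in tSH2Δ, against -0.79, -0.72 and -0.67 in WT. For succinate dehydrogenase it was -1.75, -1.82 and -1.81 in tSH2Δ, against -2.30, -2.31 and -2.22 in WT. In this complex of 4 genes the median falls between SDH4 and SDH2 in tSH2Δ replicates 1 and 2. In tSH2Δ replicate 3 and in WT it falls between SDH1 and SDH2. As a geometric mean over all its genes, succinate dehydrogenase stood at -1.68, -1.68 and -1.69 in tSH2Δ, against -1.78, -1.79 and -1.86 in WT, much closer than by the median. No test was run on these ratios, since complexes are lists chosen by hand. With geometric means and without chromosome XI genes, the oxidase stood at 0.08, 0.08 and 0.04 relative to the ATP synthase in tSH2Δ, against -0.62, -0.62 and -0.58 in WT. The bc1 complex then stood at 0.29, 0.28 and 0.27 in tSH2Δ, against -0.52, -0.54 and -0.53 in WT. Succinate dehydrogenase, left with SDH2 and SDH4, then stood at -1.56, -1.63 and -1.64 in tSH2Δ, against -2.45, -2.41 and -2.38 in WT. After quantile normalization the median log2 fold change was 0.71 for the oxidase, 0.92 for the bc1 complex, 0.26 for the ATP synthase and -0.33 for succinate dehydrogenase, against -0.01 for all genes. That median over all genes is not matched for level.

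**Figure D3:**
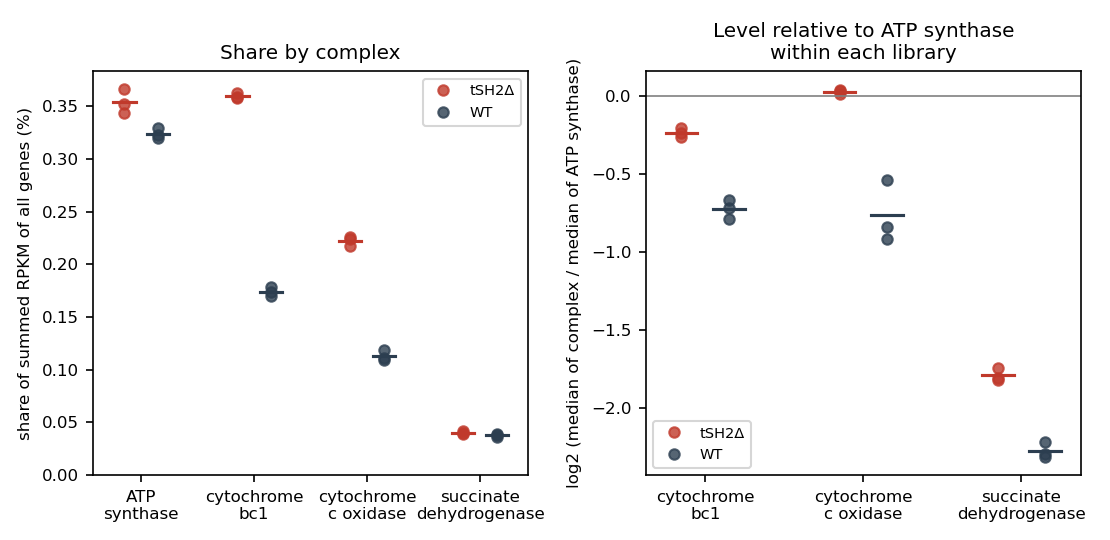
Left, share of the summed RPKM of all genes held by each complex (percent, linear axis from 0) in each library; right, log2 ratio of the median gene of a complex to the median ATP synthase gene in the same library. tSH2Δ is left of WT, points are libraries and bars are means. The bc1 and oxidase points of tSH2Δ lie above those of WT in both panels, and the shares of succinate dehydrogenase overlap. Genes on chromosome XI are included in both panels.

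Of the summed RPKM of all genes, the bc1 genes held 0.359%, 0.363% and 0.358% in tSH2Δ, against 0.173%, 0.170% and 0.178% in WT. The oxidase genes held 0.218%, 0.224% and 0.226% in tSH2Δ, against 0.111%, 0.109% and 0.119% in WT. Both shares in tSH2Δ lay well above every WT library. The ATP synthase held 0.344%, 0.353% and 0.367% in tSH2Δ, against 0.322%, 0.320% and 0.330% in WT, shares that lay next to each other. Succinate dehydrogenase held 0.0387%, 0.0396% and 0.0414% in tSH2Δ, against 0.0393%, 0.0384% and 0.0364% in WT, which overlap. The bc1 genes and the ATP synthase genes therefore held nearly equal shares in tSH2Δ, while in WT the ATP synthase held the larger one. These shares move with the rest of the library, as RPKM as deposited does, and a few very abundant genes weigh on them. The shares include the chromosome XI genes ATP7, SDH1 and SDH3, and shares without that chromosome were not calculated. SDH3 had the largest values of its complex, with means of 92.8 rescaled RPKM in tSH2Δ and 220.8 in WT.

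Replicate 3 of tSH2Δ had the highest value of the tSH2Δ libraries in 27 of the 32 genes, a place it took in 44.2% of all genes tested. Without both replicate 3 libraries, a setting chosen after seeing the data, 15 of the 32 genes were higher (40.9% of all genes) and 13 lower (41.9%).

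Position on chromosome XI went with the fall of 3 of the 32 genes. All 3 were lower, at -0.93 for ATP7, -0.65 for SDH1 and -1.24 for SDH3, where the median of the chromosome was -0.86. The lower level ran along the whole chromosome, with medians between -1.02 and -0.57 in stretches of 100 kb. With each gene set against the median of its own chromosome, a setting also chosen after seeing the data, 13 of the 32 were higher and 10 lower. Of the 5715 genes matched to RefSeq and tested in this setting, 41.5% were higher and 42% lower. Of the 29 genes on other chromosomes, 15 were called higher and 8 lower (median log2 fold change 0.18). Over the 5401 genes tested there that were matched to RefSeq, 2380 were called higher and 2144 lower (median 0.04). The cause of the lower level of chromosome XI was not tested.

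**Figure D4:**
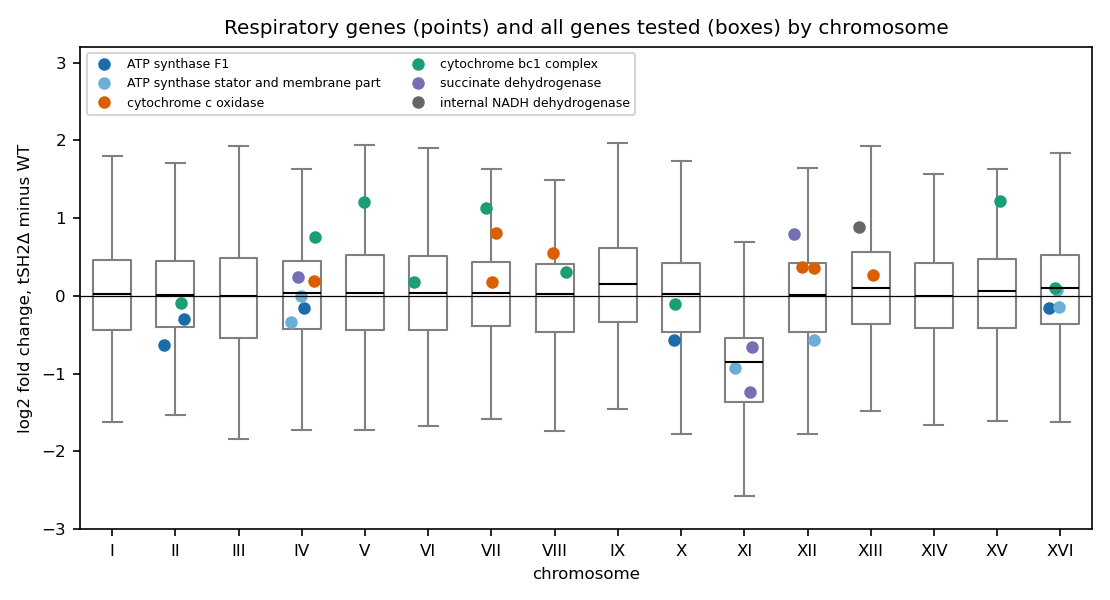
Log2 fold change, tSH2Δ minus WT, of the 32 genes (points, coloured by complex) on the chromosomes where they lie, over boxes for all genes matched to RefSeq and tested on each chromosome (box, quartiles; line, median; whiskers to 1.5 times the box height). The box of chromosome XI lies below 0 (median -0.86), and its 3 points lie within it.

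The other genes of the pathway were taken from 10 lists with 103 genes in all, of which 62 were called higher, 18 lower and 23 not called (median log2 fold change 0.24), where 41.6% of all genes were higher and 41.9% lower. In RPKM as deposited 94 were higher (72.4% of all genes) and 3 lower (17.3%). After quantile normalization 51 were higher (40%) and 30 lower (41.1%). Of the 103 genes 5 lie on chromosome XI.

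Cytochrome c carries electrons from the bc1 complex to the oxidase, and its genes rose further than any of the 32. In the list of cytochrome c, oxygen-regulated paralogs and supercomplex factors, 5 of 7 were higher (41.6% of all genes) and 2 lower (41.9%), with a median of 0.41. CYC7, the isoform favoured at low oxygen, had 70.4, 75.3 and 70.1 rescaled RPKM in tSH2Δ, against 11.6, 13.7 and 18.4 in WT, a log2 fold change of 2.249 (limma adjusted p = 8.48e-07, SE 0.135). CYC1, the main isoform in air, had 421.0, 447.1 and 503.2 rescaled RPKM in tSH2Δ, against 125.4, 111.6 and 104.6 in WT, and 2.00 (limma adjusted p = 1.01e-07, SE 0.0817). The groups of neither gene overlap. COX5A and COX5B encode alternative forms of an oxidase subunit, used in air and at low oxygen, and rose nearly alike, by 0.40 for COX5A and 0.41 for COX5B. RCF2 (-0.90) and RCF1 (-0.30), which bind the joined bc1 and oxidase complexes, were lower. RCF1 stood at 0.27 in RPKM as deposited and RCF2 at -0.32.

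The dehydrogenases that feed the chain from outside the matrix all rose, 5 of 5 (median 1.13), where 41.6% of all genes were called higher. CYB2, the lactate dehydrogenase that hands electrons to cytochrome c, was at 35.7 ± 1.45 rescaled RPKM in tSH2Δ and 10.4 ± 0.962 in WT (SD, n = 3 each), a log2 fold change of 1.69 (limma adjusted p = 1.01e-07, SE 0.0691). DLD1, a mitochondrial lactate dehydrogenase for the other isomer, rose by 1.34. The list stayed at 5 higher in all 4 scalings.

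Factors that build the complexes went both ways after scaling to the median gene, where 41.6% of all genes were called higher and 41.9% lower. For ATP synthase assembly 7 of 12 were higher and 2 lower (median 0.16). ATP22, which acts on the mRNA of a membrane subunit made in mitochondria, rose by 1.29 (limma adjusted p = 1.75e-08, SE 0.0350) and AEP1 by 0.56, while INA17 (-0.56) and ATP11 (-0.16), a chaperone of F1, were lower. Among other ATP synthase subunits and inhibitors 3 of 6 were higher and 1 lower (median 0.23), and the inhibitor-linked genes STF1 (1.12) and STF2 (0.88) led, while ATP19 was lower (-0.23). The ATP19 call was lost without tSH2Δ replicate 2 or 3 or WT replicate 2 or 3, and without WT replicate 3 it stood at -0.15. The ATP11 call was lost without tSH2Δ replicate 1 or 2 or WT replicate 1. For cytochrome c oxidase assembly 11 of 25 were higher and 6 lower (median 0.07). COA2 led with 1.95 (limma adjusted p = 9.9e-08, SE 0.0795), followed by COX23 at 0.84, and CMC1 (-1.01, chromosome XI) and PET100 (-0.51) were furthest down. For bc1 and cytochrome c assembly 5 of 8 were higher and 2 lower (median 0.19), CBP3 at 0.52 and CYC2 at 0.49 on one side, and CYT2 (-0.62, chromosome XI), the heme lyase of cytochrome c1, and MZM1 (-0.48) on the other. For succinate dehydrogenase assembly and paralogs 4 of 9 were higher and 2 lower (median -0.01). SHH3 (1.40) and SHH4 (1.17), paralogs of the anchor genes SDH3 and SDH4, rose, and FLX1 (-0.61) and SDH5 (-0.20), which is needed to attach flavin to Sdh1, were lower. Among translation activators of mitochondrial mRNAs and the mitochondrial RNA polymerase, 8 of 10 were higher and 1 lower (median 0.31). PET111 (0.91) and PET54 (0.79), which act on oxidase mRNAs, rose, and RPO41, the polymerase, was lower at -0.32. In RPKM as deposited the lower genes named in these lists, apart from CMC1, CYT2 and FLX1, stood above 0. Among them INA17, PET100 and MZM1 were not called there.

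**Figure D5:**
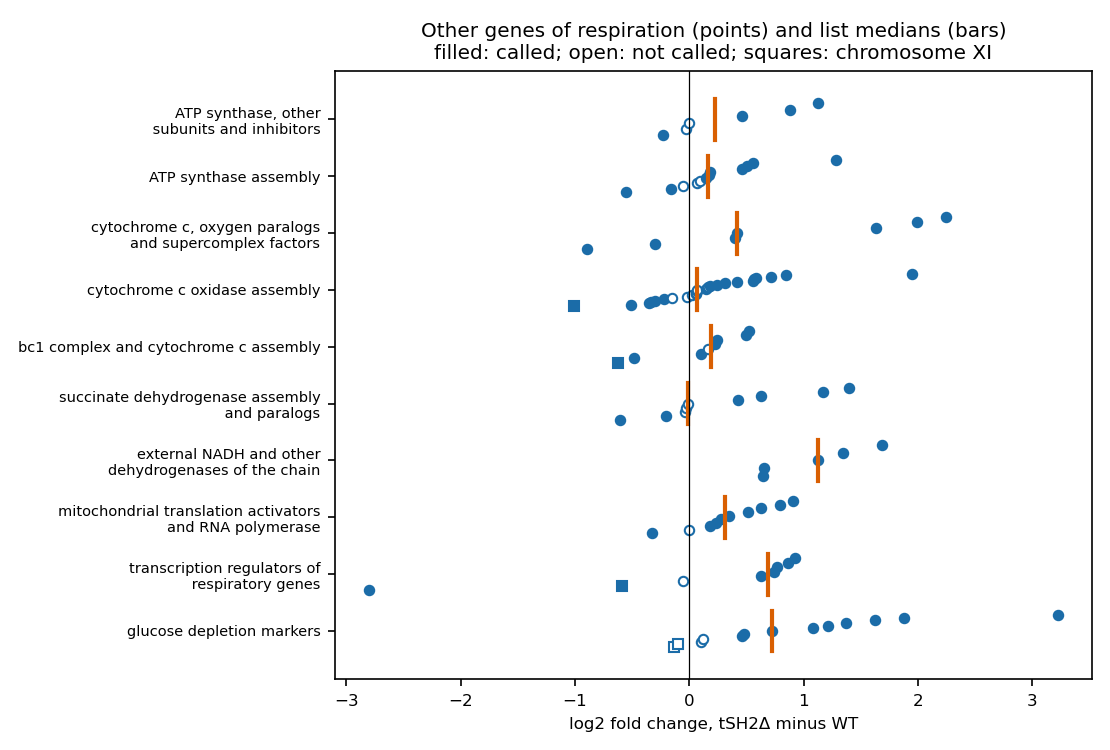
Log2 fold change, tSH2Δ minus WT, of the 103 other genes of respiration by list, with list medians as vertical bars; filled symbols were called, open symbols were not, and squares mark chromosome XI. HXK1, CYC7 and CYC1 lie furthest to the right, and HAP1 furthest to the left.

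Of 8 transcription regulators of respiratory genes 5 were higher (41.6% of all genes) and 2 lower (41.9%), with a median of 0.68. HAP1 (YLR256W, chromosome XII, 646415 to 650923) encodes a heme-responsive activator whose known targets include CYC1, CYC7, CYT1 and CYB2. HAP1 had 13.6, 14.1 and 13.1 rescaled RPKM in tSH2Δ, against 97.5, 101.6 and 102.4 in WT, a log2 fold change of -2.80 (limma adjusted p = 5.58e-09, SE 0.0429), and was lower in all 4 scalings, while each of these targets was higher. Whether the HAP1 gene itself is the same in both strains was not tested. The targets named are not its full set, and the amount and activity of the Hap1 protein were not measured. Each difference given here is one between the strains, and it cannot be credited to the SPT6 allele alone. HAP4, the limiting subunit of the Hap2/3/4/5 activator of respiratory genes, had 220.4, 215.4 and 223.8 rescaled RPKM in tSH2Δ, against 298.2, 349.7 and 346.4 in WT, at -0.59 (limma adjusted p = 2.91e-05, SE 0.0623). HAP4 lies on chromosome XI, and it stood at -0.0056 in RPKM as deposited and at 0.27, called higher, against the median of its chromosome. The genes of the DNA-binding subunits rose, HAP5 with 0.92 (limma adjusted p = 2.42e-06, SE 0.0662), HAP2 with 0.77 and HAP3 with 0.63. The repressor genes rose too, ROX1, which acts on genes of low oxygen, by 0.74 and MIG1, which acts in glucose, by 0.86. PUF3, whose product binds mRNAs of nuclear genes for mitochondrial proteins and speeds their decay, had 27.6, 30.5 and 28.8 rescaled RPKM in tSH2Δ, against 28.9, 30.0 and 31.3 in WT, with overlapping groups, at -0.054 (limma adjusted p = 0.352, SE 0.0518). PUF3 was called higher in RPKM as deposited (0.51) and lower after quantile normalization (-0.32).

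Genes that mark glucose depletion were for the most part higher in tSH2Δ after scaling to the median gene. Of 13 such markers 9 were called higher (41.6% of all genes), 0 lower (41.9%) and 4 not called (median 0.73). Their summed level was 483.0 to 521.3 rescaled RPKM in tSH2Δ and 146.6 to 152.1 in WT, and none was at 0 in any library. Most of that rise was in HXK1, a hexokinase that glucose represses, at 253.1 ± 9.21 rescaled RPKM in tSH2Δ and 26.2 ± 0.915 in WT (SD, n = 3 each), a log2 fold change of 3.22 (limma adjusted p = 1.99e-09, SE 0.0416). Without HXK1 the sum was 236.1 to 257.6 in tSH2Δ and 120.9 to 126.4 in WT. ADH2, the alcohol dehydrogenase that uses ethanol, was at 54.4 ± 3.27 rescaled RPKM in tSH2Δ and 14.0 ± 1.06 in WT (SD, n = 3 each), a log2 fold change of 1.88 (limma adjusted p = 4.52e-08, SE 0.0656). Gluconeogenic and glyoxylate genes rose where called, ICL1 by 1.22, FBP1 by 1.08 and MLS1 by 0.46, while PCK1 and JEN1 (both on chromosome XI), CAT8 and ACS1 were not called. In WT 7 of the 13 markers were below 10 rescaled RPKM. After quantile normalization 7 of the 13 were higher (40% of all genes) and 4 lower (41.1%), with a median of 0.31. The part of the growth state in the results above was not tested.

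The authors' deposited table lists 2890 genes with a log2 ratio of mean RPKM, 2405 of them higher in tSH2Δ and 485 lower. It holds 16 of the 32 genes, 15 of them higher and 1 lower. For CYT1 the authors' deposited table gives a log2 ratio of 1.80 with an adjusted p of 4.55e-95, and for SDH3 one of -0.66 with an adjusted p of 1.19e-73. No ATP synthase gene is among the 16. The authors' list leaves out many of the 6571 genes, and absence from it does not show that a gene was unchanged. Among the 16 the ratio smallest in size was that of SDH3, while ATP7, at -0.35 in RPKM as deposited, is not listed. The ratios come from the same RPKM values and are no independent support.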

How the data were processed

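RNA-seq libraries of tSH2Δ and WT yeast, 3 each, were used, and 6 ATAC-seq libraries were not analysed here. Per the labels' protocols, rRNA-depleted RNA was made into stranded libraries and read as single ends of 50 bases. The authors deposited RPKM values per gene. For both assays together the submitters' processing notes name Trim Galore 0.4.1, Bowtie 1.1.2 and Bowtie2, HTSeq 0.6.1, DESeq and DESeq2, SAMtools 1.3.1 and 0.1.9, deepTools 2.2.4 and bedtools 2.25.0. The treatment of strand and of repeated matches in counting was not given in the sources used here. In the files 8 of the 32 genes are shorter than 300 bases. Per the file headers, the authors' deposited table also gives a log2 ratio and a DESeq2 adjusted p-value, and 6 columns of per-library RPKM in it were not used.

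RPKM times gene length gave whole reads for 100% of values (tolerance 0.01). A nameless row (0.513% to 0.926% of reads) was left out, and 84.6% to 87.6% of reads were in genes. RPKM were divided by median-ratio factors (1.21 to 1.24 in tSH2Δ, 0.813 to 0.829 in WT) and tested as log2(RPKM + 1) with limma 3.58.1 in R 4.3.3, with an intensity trend, two-sided, over genes with at least 1 RPKM in 3 of 6 libraries, with Benjamini-Hochberg adjustment. This scale understates changes of low genes. The fit was tested on simulated data. Alternatives covered the scaling, pseudocount, filter, variance model, voom on whole reads, the replicate block, chromosome XI and each library left out.

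The 32 genes and the 10 lists were chosen with earlier results of these data known. All 32 genes, SPT6, the regulators and the markers could be named, and from each other list at most 2 called genes that rose furthest and 2 that fell furthest. COX5A and COX5B lie outside that rule and were chosen after their values were seen. Names and coordinates (1-based) come from the RefSeq table of assembly R64, which matched 5897 of 6571 IDs.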

Additional observations from a re-analysis of the deposited data

How the results depend on the processing

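The scaling between libraries turned many directions, listed below by the sign of the log2 fold change, whether called or not. ATP2, ATP14, INA17, MZM1 and PET100 were not called in RPKM as deposited, and ATP14 was not called after quantile normalization. The shares of all genes given for quantile normalization are not matched for level. With RPKM as deposited 26 of the 32 genes were higher and 2 lower (4565 and 1091 of all genes), with quantile normalization 26 and 3 (40% and 41.1% of all genes), and with total-sum scaling without ribosomal protein genes 26 and 4 (4259 and 1314 of all genes). Direction turned with RPKM as deposited for ATP2 (0.017), ATP3 (0.29), ATP16 (0.42), ATP15 (0.42), ATP4 (0.44), ATP5 (0.58), ATP14 (0.0070), ATP17 (0.24), COR1 (0.49), QCR8 (0.48), PUF3 (0.51), INA17 (0.0074), ATP11 (0.41), ATP19 (0.35), MZM1 (0.089), PET100 (0.063), RCF1 (0.27), RPO41 (0.25) and SDH5 (0.37). With quantile normalization it turned for ATP2 (0.20), ATP3 (0.31), ATP16 (0.39), ATP15 (0.50), ATP4 (0.28), ATP5 (0.45), ATP14 (0.017), ATP17 (0.13), COR1 (0.39), QCR8 (0.33) and ATP19 (0.51). With total-sum scaling it turned for ATP3 (0.18), ATP16 (0.32), ATP15 (0.31), ATP4 (0.33), ATP5 (0.47), ATP17 (0.13), COR1 (0.38), QCR8 (0.37), PUF3 (0.40), ATP11 (0.31), ATP19 (0.24), RCF1 (0.16), RPO41 (0.14) and SDH5 (0.26).

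With single libraries left out, 13 to 15 of the 32 genes were higher and 9 to 13 lower, and 2445 to 2583 and 2513 to 2597 of all genes. ATP5 then ranged from -0.038 to 0.025, with the sign turned without tSH2Δ replicate 1 (0.025), tSH2Δ replicate 2 (0.0054), WT replicate 1 (0.014) and WT replicate 2 (0.010). Replicate numbers did not pair the libraries (correlations of deviations -0.26, -0.08 and -0.28), and with a replicate block 14 genes were higher and 10 lower, ATP16 (adjusted p = 0.0646) and QCR6 (adjusted p = 0.0755) being lost. With chromosome XI left out before scaling the counts were 14 and 9, and with voom on the whole reads 15 and 11. Centring each chromosome on its own median, chosen after seeing the data, gave 13 and 10, with ATP20 at -0.022, SDH1 at 0.20, HAP4 at 0.27 and CYT2 at 0.24. The causes were not tested. The smallest count of any of the 32 genes in a library was 255 reads, and the 3 libraries per strain limit the precision.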
